A study of Silurus lanzhouensis with 6 samples.

Results

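Transcripts that were abundant in the back muscle of the catfish Silurus lanzhouensis and differed most between individual fish are described here, each transcript unit being a cluster of the deposited expression table. The members are the 100 clusters with the largest standard deviation (SD) of log2(FPKM + 1) over 6 fish. They came from a class of 479 clusters whose mean level was at least 100 and under 1000 FPKM, out of 89579 clusters in all. FPKM is a fragment count divided by transcript length and library size, so levels of different clusters can be compared. The members were selected on their spread over the 6 fish, so the size of that spread is a description and was not tested. Each member is given below by its rank, where rank 1 has the largest SD.

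The study compared muscle RNA of the heaviest and the lightest fish drawn from a common tank. Both groups were F3 fingerlings, bred from selected F2 females and wild males. They were reared for 16 weeks in flowing pond water near 24 °C, and the labels name no treatment. Each group had 3 fish, with 1 library per fish, and individual weights were not used here.

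Back muscle of fish consists largely of fast fibres, with a smaller amount of slow fibres, connective tissue, fat, blood vessels and nerves. In such tissue, genes of the contractile filaments, of glycolysis, of energy buffering, of calcium handling and of protein synthesis commonly give the most abundant transcripts. A piece of muscle also carries RNA from any other cell type in it. In whole tissue, fewer cells of a type and less RNA per cell cannot be told apart. The files give cluster IDs without gene names or sequences, so no member could be assigned a function, and the labelled tissue could not be checked against its markers. For the same reason, whether clusters with a shared profile belong to a single gene was not tested. Counts of members below are counts of clusters, which may not be separate genes.

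All 6 libraries had similar depth. The most frequent ratio between low FPKM values, which reflects single fragments, put the depth of the other 5 libraries at 0.895 to 1.06 times that of heaviest fish 1. Absolute depth is unknown. All 100 members and all 379 remaining clusters of the class had an ID with the first number 6468, against 67.8% of all clusters. The members made up 4.17% of summed FPKM in heaviest fish 1, 2.88% in heaviest fish 2 and 1.86% in heaviest fish 3. In lightest fish 1, 2 and 3 they made up 2.84%, 2.35% and 2.75%. Heaviest fish 1 and heaviest fish 3 were thus the 2 ends of this range, and the lightest fish lay between them. The other 379 clusters of the class held 9.99% to 11.1% in the same fish.

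The spread was concentrated in few members. The SD fell from 4.31 on the log2 scale at rank 1 to 1.43 at rank 20, 0.68 at rank 50 and 0.46 at rank 100. Ranks 1 to 20 held 78.3% of the members' summed variance and 67.8% of that of the whole class. The ratio of the highest to the lowest fish was at least 10-fold in 21 members and under 5-fold in 63, with a median of 3.52-fold. The median ratio was 1.56-fold in the rest of the class. The median of the mean levels was 195 FPKM in the members and 180 FPKM in the rest. At the edge of the rule, ranks 98 to 100 had SDs of 0.471, 0.465 and 0.464, and the next 3 clusters had 0.456, 0.455 and 0.451.

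**Figure D1:**
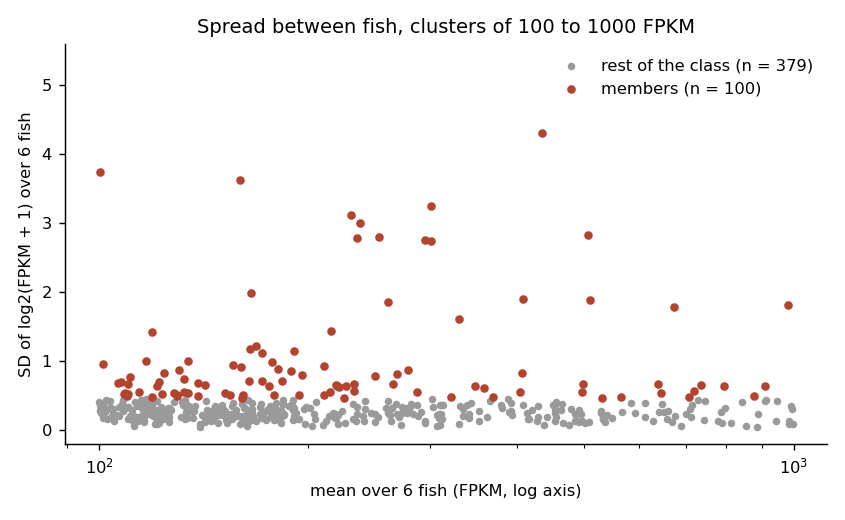
Spread against level for all 479 clusters of the class. Each point is a cluster, the x axis is the mean over 6 fish in FPKM on a log axis and the y axis is the SD of log2(FPKM + 1). The 100 members (red) lie at an SD of 0.464 or more, and 11 of them lie at 2 or more.

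A set of 6 members, ranks 6 to 11, was very high in heaviest fish 1 and low in most of the other fish. In heaviest fish 1 they lay between 1216 and 2465 FPKM. In lightest fish 1, the second highest for each of them, they lay between 74.8 and 435 FPKM. The remaining fish were between 3.81 and 55.5 FPKM. Rank 6 was at 1318, 9.51 and 3.81 FPKM in fish 1, 2 and 3 of the heaviest group and at 74.8, 8.26 and 12.1 FPKM in lightest fish 1, 2 and 3. At rank 7 the levels were 2465, 20.03 and 14.8 FPKM in the heaviest and 435, 42.5 and 55.5 FPKM in the lightest fish. Both groups of fish thus held both high and low values, and the groups overlapped. Of ranks 1 to 20, 7 had a mean under 100 FPKM without heaviest fish 1, so those were in the class only through that fish.

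The rest of this set repeated the pattern at similar levels. The cluster of rank 8 had 1352, 12.95 and 5.72 FPKM in the heaviest and 110, 15.7 and 21.2 FPKM in the lightest fish. For rank 9 the values were 1216, 13.2 and 4.96 FPKM in the heaviest and 134, 20.5 and 20.7 FPKM in the lightest fish. Ranks 8 and 9 kept a ratio between 0.765 and 1.15 in all 6 fish, while their highest fish exceeded their lowest by 236-fold and 245-fold. Levels of rank 10 were 1509, 11.8 and 9.54 FPKM in the heaviest and 186, 24.1 and 27.7 FPKM in the lightest fish. Rank 11 was at 1520, 12.3 and 9.06 FPKM in the heaviest and at 195, 27.65 and 37.9 FPKM in the lightest fish. Centred on their own means, the 6 profiles differed by at most 0.845 on the log2 scale in any fish. Together these 6 clusters made up 0.915% of summed FPKM in heaviest fish 1 and 0.12% in lightest fish 1. They made up between 0.00499% and 0.0184% in the other 4 fish.

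Less steep versions of the same pattern were seen at ranks 12, 13 and 20. At rank 12 the levels were 712, 24.8 and 17.1 FPKM in the heaviest and 160, 34.2 and 44.4 FPKM in the lightest fish. The cluster of rank 13 had 1891, 83.6 and 57.2 FPKM in the heaviest and 254, 68.0 and 93.5 FPKM in the lightest fish. In both, heaviest fish 1 was the highest and lightest fish 1 the second. For rank 20 the values were 483, 48.0 and 29.0 FPKM in the heaviest and 63.5, 44.9 and 47.2 FPKM in the lightest fish. There the 5 fish other than heaviest fish 1 stayed within 29.0 to 63.5 FPKM.

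Another set, ranks 3 to 5, was high in lightest fish 1 and 3, intermediate in lightest fish 2 and low in all heaviest fish. Cluster-6468.43262, of rank 3, lay at 6.5, 0.48 and 1.52 FPKM in fish 1, 2 and 3 of the heaviest group and at 488, 28.2 and 432 FPKM in lightest fish 1, 2 and 3. Levels of rank 4 were 28.7, 3.27 and 7.5 FPKM in the heaviest and 817, 54.9 and 894 FPKM in the lightest fish. Cluster-6468.34508, of rank 5, was at 15.3, 4.17 and 6.51 FPKM in the heaviest and at 647, 39.8 and 668 FPKM in the lightest fish. The groups did not overlap for any of the 3 members. Within the lightest fish, lightest fish 2 was still below the other fish by more than 10-fold. Centred on their own means, the 3 profiles differed by at most 0.80 on the log2 scale. Rank 15 shared the high values of lightest fish 1 and 3, at 824 and 498 FPKM, against 58.4 FPKM in lightest fish 2. Its heaviest fish were at 77.4, 74.1 and 30.9 FPKM, so its groups overlapped.

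One more set, ranks 14, 16 and 17, ran from heaviest fish 1 down to heaviest fish 3 with the lightest fish between them. The member of rank 16 was the most abundant of all members, with a mean of 983 FPKM. It was at 3248, 1430 and 130 FPKM in fish 1, 2 and 3 of the heaviest group and at 578, 354 and 156 FPKM in lightest fish 1, 2 and 3. Rank 17 was at 2234, 956 and 88.8 FPKM in the heaviest and at 412, 230 and 114 FPKM in the lightest fish. The ratio of rank 16 to rank 17 stayed between 1.37 and 1.54 in the 6 fish, although both changed about 25-fold between fish. At rank 14 the levels were 1655, 762 and 52.5 FPKM in the heaviest and 317, 184 and 81.9 FPKM in the lightest fish. The largest difference between the centred profiles of the 3 members was 0.31 on the log2 scale.

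The remaining members of ranks 1 to 20 belonged to none of these sets. The member of rank 1 was high in heaviest fish 2 and lightest fish 2, at 1807 and 783 FPKM. Its values were 3.5 and 10.6 FPKM in heaviest fish 1 and 3 and 1.23 and 1.59 FPKM in lightest fish 1 and 3. The replicate numbers of these 2 fish match, but the labels do not say that equal numbers mark a shared origin. The cluster of rank 2 was at 601 FPKM in lightest fish 3, at 0.15 and 0.16 FPKM in lightest fish 1 and 2, and listed at 0 in the 3 heaviest fish. It was the only member listed at 0 in any fish, and its mean of 100.2 FPKM came almost wholly from 1 fish. Rank 18 had the opposite form, with 25.2 FPKM in heaviest fish 1. Its other values were 434 and 301 FPKM in heaviest fish 2 and 3 and 540, 366 and 313 FPKM in the lightest fish. For rank 19 the values were 651, 298 and 146 FPKM in the heaviest and 89.7, 63.7 and 44.6 FPKM in the lightest fish, so that all heaviest fish were above all lightest fish.

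**Figure D2:**
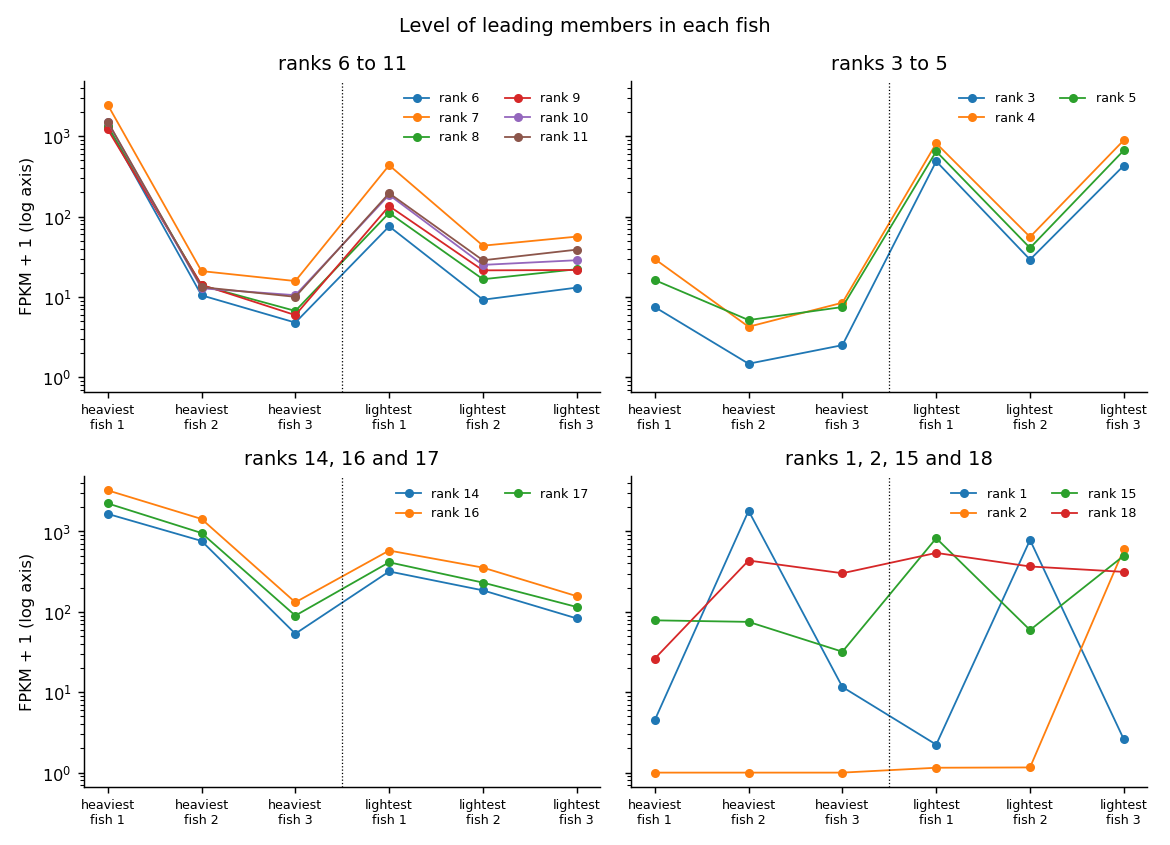
Level of leading members in each fish, with FPKM + 1 on a log axis and the 6 fish on the x axis. Lines only join the points of 1 cluster, and the dotted line parts the heaviest from the lightest fish. Ranks 6 to 11 peak in heaviest fish 1 at 1216 to 2465 FPKM, ranks 3 to 5 in lightest fish 1 and 3, and ranks 14, 16 and 17 fall from heaviest fish 1 to heaviest fish 3.

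Clusters with a profile like that of a leading member were counted over the table. A cluster was taken as like a member when the 2 centred profiles differed by at most 1 on the log2 scale in every fish. Among the 28592 clusters that averaged 1 FPKM or more, 0 were like rank 1 and 0 were like rank 2. For rank 3 there were 3 such clusters, of which 2 were ranks 4 and 5, and for rank 18 there were 4. For ranks 6 to 11 there were between 11 and 19, of which 5 were always the other members of that set and the rest had means of 10 to 100 FPKM. For ranks 14, 16 and 17 there were between 11 and 20, mostly under 10 FPKM. Ranks 4 and 5 had 3 and 10 such clusters. More were found for ranks 12, 13, 15, 19 and 20, at 128, 127, 33, 111 and 640. None of the clusters like ranks 1 to 20 averaged 1000 FPKM or more. Such counts become smaller with a larger SD by construction, so they do not show that these profiles were rare.

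In ranks 21 to 100 the spread was moderate, with SDs between 0.46 and 1.22. Heaviest fish 1 was the highest fish in 25 of these 80 members and the lowest in 27, or 31.25% and 33.75%. In the rest of the class the shares were 19.0% and 29.0%, so the share as the lowest fish was close to that of the rest. Levels of rank 24 were 552, 86.8 and 68.8 FPKM in fish 1, 2 and 3 of the heaviest group and 151, 80.7 and 89.6 FPKM in lightest fish 1, 2 and 3. In it heaviest fish 1 was the high fish. Rank 30 was at 56.1, 238 and 135 FPKM in the heaviest and at 220, 288 and 330 FPKM in the lightest fish. In it heaviest fish 1 was the low fish.

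Other fish stood alone in fewer members. When the 6 values of a member were sorted and parted at their widest gap, the first member with heaviest fish 3 alone above was rank 31, at 176, 83.3 and 371 FPKM in the heaviest fish. Its lightest fish were at 74.1, 176 and 78.8 FPKM. Heaviest fish 3 stood alone below the rest at rank 21, with 32.1 FPKM against 73.5 to 290 FPKM in the other fish. Lightest fish 2 stood alone below at rank 34, with 36.4 FPKM against 93.9 to 183 FPKM. For heaviest fish 2 the first members were rank 78, where it was alone above at 1148 FPKM, and rank 42, where it was alone below at 51.3 FPKM. Lightest fish 2 was alone above at rank 66, with 637 FPKM, and lightest fish 3 was alone below at rank 58, with 95.3 FPKM. Lightest fish 1 was alone below at rank 89, with 69.5 FPKM, and alone above in 0 members. At ranks 42, 58, 66, 78 and 89 the widest gap was small, between 1.49-fold and 1.75-fold in FPKM + 1.

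Over all 100 members, heaviest fish 1 was the highest fish in 38 and the lowest in 29. In the rest of the class it was the highest in 19.0% and the lowest in 29.0% of clusters. This difference between members and the rest was not tested. Without heaviest fish 1, 16 members had a mean under 100 FPKM. Those members were in the class only through that fish, so its count as the highest fish follows partly from the rule. Heaviest fish 3 was the lowest fish in 33 members and the highest in 7, against 21.9% and 9.5% of the rest. Lightest fish 3 was the highest in 22 members, heaviest fish 2 in 17, lightest fish 2 in 12 and lightest fish 1 in 4. In the rest of the class these fish were the highest in 17.9%, 32.2%, 17.7% and 3.69%. The counts in the members depend on how libraries are scaled to each other. The 33 for heaviest fish 3 became 25 with median-ratio scaling. With median-ratio scaling, lightest fish 3 was the highest in 8 members and lightest fish 2 in 24, while heaviest fish 1 was the highest in 34 to 36 under both other scalings. Heaviest fish 1 was the highest or the lowest fish in 67 members, and in 64 and 66 with the other scalings. In the rest of the class it was at an end in 48.0% of clusters, more than any other fish.

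**Figure D3:**
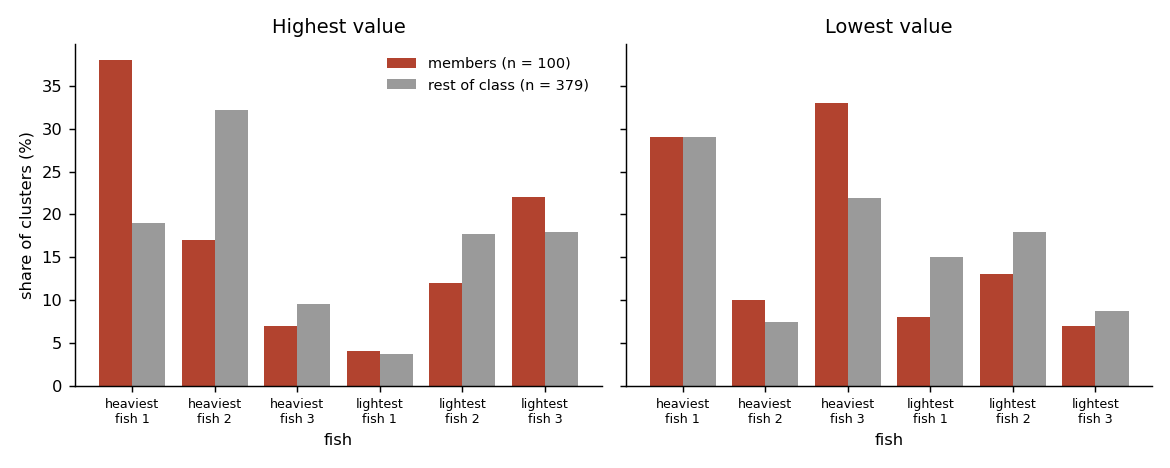
Share of clusters in which each fish had the highest (left) or lowest (right) value, in percent, for the 100 members (red) and the remaining 379 clusters of the class (grey). Heaviest fish 1 is highest in 38.0% of the members and 19.0% of the rest, and lightest fish 1 in 4 members. Of the members, 16 were in the class only through heaviest fish 1.

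A gap of at least 1 on the log2 scale, which is 2-fold, parted the fish in 45 members and in 1 of the other 379 clusters of the class. Over all 28592 tested clusters, whose median level was 2.84 FPKM, such a gap was found in 23.1%. The size of the gap follows from the choice of members, and only the make-up of the parts is described. In 33 of the 45 a single fish stood apart, above the rest in 22 and below in 11. Heaviest fish 1 was that fish in 26 of the 33, above in 19 and below in 7. Where it was above, it exceeded the median of the other fish by a median of 7.26-fold, with a range of 2.3-fold to 139-fold. Where it was below, the median of the other fish exceeded it by a median of 3.23-fold. In 4 members the widest such gap set lightest fish 1 and 3 above the rest, and in 0 did it part the 3 heaviest from the 3 lightest fish. Without heaviest fish 1, a setting chosen after the values were seen, a single fish stood apart by this gap in 24 members.

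**Figure D4:**
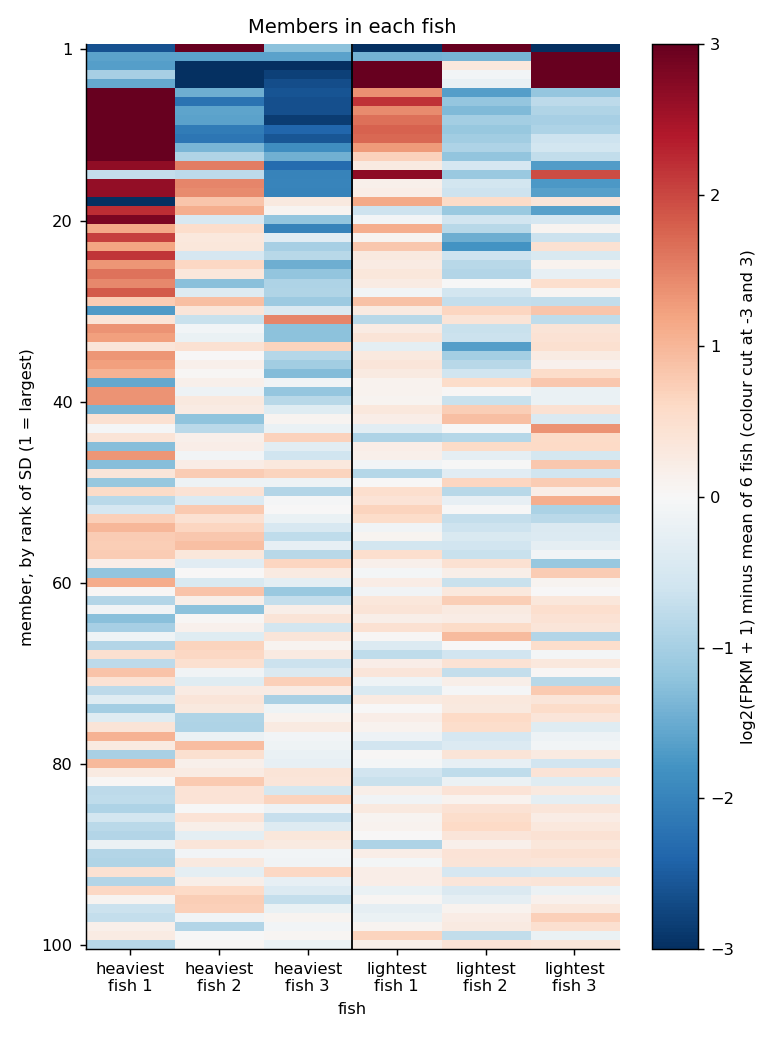
Each member (rows, by rank) in each fish (columns), as log2(FPKM + 1) minus the mean of the 6 fish, with colours cut at -3 and 3. Strong colours gather in ranks 1 to 20, and in heaviest fish 1 most of ranks 6 to 17 are far above their mean while rank 18 is far below.

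Values of 6 fish can vary along only a few directions, so a small number of them is no finding about the members. Ranks 1 to 20 held 78.3% of the members' summed variance, so the unscaled components mostly describe these. In a principal component analysis of their centred log2(FPKM + 1) values, the first component held 49.5% of the variance. Heaviest fish 1 lay at 16.1 on it, lightest fish 1 at 6.16 and the other 4 fish between -8.62 and -1.48. The groups overlapped on it. The second component held 32.3% and put heaviest fish 1, 2 and 3 at -6.23, -8.18 and -2.95. Lightest fish 1, 2 and 3 lay at 6.30, -0.709 and 11.8 on it, so the 3 heaviest fish were below the 3 lightest, with the 2 nearest fish of the groups at -2.95 and -0.709. The members were chosen on their spread over all 6 fish, and this separation was not tested. In the other 379 clusters the first component held 44.5%, with the heaviest fish between 0.92 and 5.79 and the lightest between -3.81 and -1.73. Their second component held 25.6%. With each member scaled to an SD of 1, a setting chosen after the values were seen, the first component held 50.5%.

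Spread within one group of fish can be set against spread within the other, since the 2 groups share no fish. Of the 100 clusters of the class with the largest SD among the 3 heaviest fish, 50 were also among the 100 with the largest SD among the 3 lightest. A list of 100 is 20.9% of the class. The class was set by the mean level over both groups and the lists were not matched for level, so they are not independent. The overlap was not tested, and it does not show that spread repeats between the groups. The median SD among the lightest fish was 0.30 for the clusters most variable in the heaviest, and 0.13 for the others. The median SD among the heaviest fish was 0.53 for the clusters most variable in the lightest, and 0.25 for the others. All 50 shared clusters were members, which follows partly from the rule. Without heaviest fish 1 the shared number was 37. Members were more variable among the heaviest than among the lightest fish in 78 of 100, close to the 75.7% of the rest of the class. Their median SD was 0.77 among the heaviest fish and 0.47 among the lightest.

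The comparison of the heaviest with the lightest fish, the question of the study, gave no call among the members. In the limma test over 28592 clusters, 0 of the 100 members passed a Benjamini-Hochberg adjusted p of 0.05. Of all tested clusters 1.22% did, 0.574% higher and 0.651% lower in the heaviest fish. In the rest of the class 0 of 379 clusters passed, so the lack of calls was not particular to the members. At an unadjusted limma p under 0.05 there were 19 members, or 19.0%, 6 of them with a higher level in the heaviest fish and 13 with a lower one. Of all tested clusters, 8.59% had such a p, 3.55% on the higher and 5.04% on the lower side, and of the rest of the class 15.6%. No other test was run for differences between the groups. With median-ratio scaling the 19 became 15, with 9 higher and 6 lower, so the balance of directions depended on the scaling. The median log2 fold change of the members was 0.05, against -0.03 over all tested clusters. The fold changes of single members ranged from -5.92 to 2.25. They were 1 or more in 7 members and -1 or less in 8. Of the 28592 tested clusters, 1627 were at 1 or more and 1654 at -1 or less. The rest of the class, whose SD the rule limits, had 0 of either. Rank 2 was counted by its fitted value although its heaviest fish were listed at 0. The median standard error (SE) was 0.46 in the members and 0.18 in the rest of the class. The share of a member's variance that lay between the groups had a median of 22.4%, against 31.6% in the rest of the class and 16.7% over all tested clusters.

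With all 6 fish the members had no common direction, with 52 log2 fold changes above 0 and 48 below. Their median log2 fold change was -0.25 without heaviest fish 1 and 0.35 without heaviest fish 3. Heaviest fish 1 was the highest fish in 38 members and the lowest in 29, and heaviest fish 3 the highest in 7 and the lowest in 33. These shifts thus follow partly from the choice of members. Over all tested clusters the same 2 settings gave -0.12 and 0.05.

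Groups that did not overlap were found for 19 members. All 3 heaviest fish were above all 3 lightest in 5 of them, against 4.95% of all tested clusters, and below in 14, against 8.26%. Both directions together made up 19.0% of the members, 13.2% of all tested clusters and 25.6% of the rest of the class. With median-ratio scaling the 5 and 14 became 9 and 8, sharing 4 and 8 clusters with them. With quantile normalization they became 7 and 16. Ranks 2 to 5, 41 and 49 on the lower side and ranks 19, 48 and 82 on the higher side averaged under 100 FPKM in their lower group. These were in the class only through the group where they were high, so their separation is a description.

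On the higher side, the 2 members with the smallest p were ranks 48 and 68. Cluster-6468.18135, of rank 48, was at 126, 165 and 154 FPKM in fish 1, 2 and 3 of the heaviest group and at 52.7, 75.9 and 64.1 FPKM in lightest fish 1, 2 and 3. Every heaviest fish was above every lightest fish, and the ratio of the group means was 2.31. This cluster averaged 64.2 FPKM in the lightest fish, so it was in the class only through the heaviest fish. Its fold change and p-values are given as a description. It differed by 1.20 on the log2 scale, with an SE of 0.20 (limma adjusted p = 0.0559), the smallest adjusted p of any member. With a pseudocount of 0.1 or 0.5 in place of 1 the limma adjusted p was 0.0372 or 0.0492. In every other alternative it was above 0.05, from 0.0592 without lightest fish 2 to 0.18 without lightest fish 3. With median-ratio scaling it was 0.171, so its call depends on the setting. Cluster-6468.30693, of rank 68, was at 938, 1050 and 823 FPKM in the heaviest and at 400, 458 and 651 FPKM in the lightest fish. Its groups did not overlap, although its widest gap set lightest fish 3 with the heaviest fish, above lightest fish 1 and 2. It differed by 0.92 on the log2 scale, with an SE of 0.20 (limma adjusted p = 0.173).

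On the lower side, the smallest p belonged to the clusters of ranks 3 and 5 described above. Ranks 3, 4 and 5 averaged 2.83, 13.2 and 8.65 FPKM in the heaviest fish. They were thus in the class only through the lightest fish, and their fold changes and p-values are given as a description. Cluster-6468.43262 had a log2 fold change of -5.92 with an SE of 1.19 (limma adjusted p = 0.123). Cluster-6468.34508 had a log2 fold change of -4.93 with an SE of 1.13 (limma adjusted p = 0.196). Within the lightest group, lightest fish 2 was far below the other 2 fish in both. Without lightest fish 2 the limma adjusted p was 0.0224 for Cluster-6468.43262 and 0.0153 for Cluster-6468.34508. In that setting ranks 3, 4 and 5 were the members called, among 516 calls over all tested clusters. Leaving out any other fish gave a limma adjusted p of 0.288 to 0.489 for Cluster-6468.43262 and of 0.342 to 0.609 for Cluster-6468.34508. The member of rank 4 had a log2 fold change of -5.07 with an SE of 1.23 (limma adjusted p = 0.231). The member of rank 2, whose groups also did not overlap, had a limma adjusted p of 0.795. No fold is given for it because the heaviest fish were listed at 0.

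Most other members with groups that did not overlap were lower in the heaviest fish by about 1 or less on the log2 scale. At rank 62 the levels were 460, 960 and 512 FPKM in the heaviest and 1061, 1401 and 1067 FPKM in the lightest fish (log2 fold change -0.94, SE 0.29, limma adjusted p = 0.427). The cluster of rank 90 had 452, 792 and 791 FPKM in the heaviest and 959, 1117 and 1146 FPKM in the lightest fish (log2 fold change -0.70, SE 0.24, limma adjusted p = 0.485). In both, heaviest fish 1 was the lowest of all 6. In the other direction, rank 19 had a log2 fold change of 2.25 with an SE of 0.55 (limma adjusted p = 0.239). For rank 56 the values were 333, 377 and 169 FPKM in the heaviest and 136, 134 and 166 FPKM in the lightest fish, so that heaviest fish 3 was only just above the lightest. Levels of rank 82 were 106, 178 and 132 FPKM in the heaviest and 64.4, 90.7 and 79.9 FPKM in the lightest fish.

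**Figure D5:**
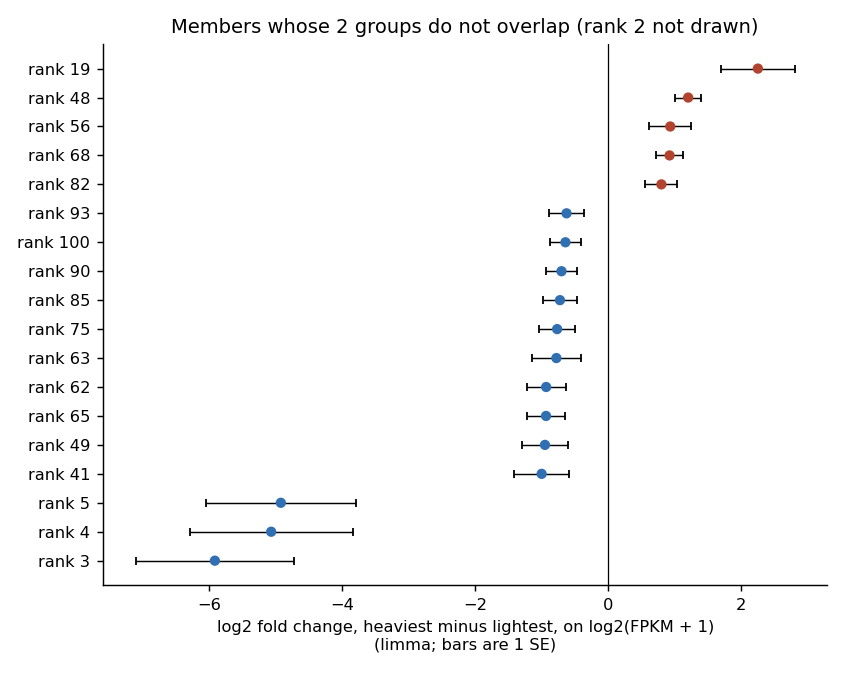
Log2 fold change between the heaviest and lightest fish, on the log2(FPKM + 1) scale, for 18 of the 19 members whose groups do not overlap, with bars of 1 SE from limma. Rank 2 is not drawn because its heaviest fish were listed at 0. The 5 members in red are higher and the 13 in blue lower in the heaviest fish, and ranks 3 to 5 lie between -5.92 and -4.93 while 10 members lie between -1.003 and -0.63.

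How far heaviest fish 1 set the membership can be read from the rule applied to the other 5 fish. It kept 65 of the 100 members and 12 of ranks 1 to 20. Of the members lost, 16 had a mean under 100 FPKM without that fish, 1 had a mean of 1000 FPKM or more and 18 were no longer among the 100 largest SDs. Leaving out any other fish kept 90 to 93.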

How the data were processed

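Total RNA from back muscle of 6 fish, 1 library each, was sequenced with standard Illumina library preparation, per the labels' protocols. The labels also gave the groups and the replicate numbers. The authors deposited FPKM values for 89579 clusters, rounded to 2 decimals, with 1 column per fish. The tools for assembly, alignment and counting were not given in the sources used here. Another deposited table of other values, transcript lengths, was used only to compare IDs, and 0 transcript IDs matched a cluster ID, so lengths were not joined.

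Levels were analysed as log2(FPKM + 1). The groups were compared with limma 3.58.1 in R 4.3.3, with a variance trend and two-sided p-values adjusted by Benjamini-Hochberg, over the 28592 clusters that averaged 1 FPKM or more, which included all 100 members. Fold changes are on this scale and understate changes of low values. The p-values set the difference between the group means against the spread between fish within the groups. Other steps used Python 3.11.15, numpy 2.4.6 and pandas 2.3.3. The test was checked on simulated data.

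The members, lists and tests were chosen with earlier results of these data known. At most 4 IDs are printed, the 2 higher and 2 lower with the smallest p among members whose groups do not overlap. Other members described are ranks 1 to 20, the most abundant, those with 1 fish apart and those at the edge of the rule. Ranks 24, 56, 62, 82 and 90 were added after their values were seen. Alternatives were other pseudocounts, filters, scalings, measures of spread, limma without a trend, a replicate block and each fish left out.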

Additional observations from a re-analysis of the deposited data

How the results depend on the processing

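Of the 100 members, limma called 0 at an adjusted p under 0.05, and 1 with a pseudocount of 0.1, 1 with a pseudocount of 0.5 (rank 48 both times) and 0 to 3 when 1 fish was left out. These were rank 69 without heaviest fish 2, rank 56 without heaviest fish 3, and ranks 3, 4 and 5 without lightest fish 2. Over all 28592 tested clusters there were 350 calls, and 447 and 364 with pseudocounts of 0.1 and 0.5. With 1 fish left out there were 425 to 516. Ranks 3, 4, 5 and 48 were in the class only through the group where they were high. The 19 members at an unadjusted p became 9 to 26 when 1 fish was left out (9 without lightest fish 2 and 12 without lightest fish 1). In these settings the median log2 fold change of all 100 members ran from -0.25 to 0.35. Groups did not overlap in 23 to 35 members when 1 fish was left out (35 and 34 without heaviest fish 2 and 3, 33 without lightest fish 1), where fewer fish make this easier by construction. The rule kept 65 to 93 members when 1 fish was left out, 68 with the median absolute deviation and 90 to 100 with the other settings tried.

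With a replicate block limma called 1 member, rank 3, with 33 at an unadjusted p, and 163 clusters in all against 350. Across tested clusters, the deviations from the group means had correlations of 0.171, 0.065 and 0.056 for the equally numbered pairs, and from -0.104 to 0.051 for the rest. The labels do not say whether equally numbered fish share an origin, and this was not tested. Raising the filter to 5 FPKM left 62 calls in all.

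Members highest in heaviest fish 2 numbered 28 without heaviest fish 1. Those highest in heaviest fish 3 numbered 13 with median-ratio scaling, 11 with quantile normalization and 8 without heaviest fish 1. For lightest fish 1 the numbers were 9 with quantile normalization and 25 without heaviest fish 1. For lightest fish 2 they were 24 with median-ratio scaling and 12 without heaviest fish 1, and for lightest fish 3 they were 8 and 27. The changes without heaviest fish 1 follow by construction, since the 38 members highest in it took another highest fish. Median-ratio scaling divided all values of heaviest fish 3 by 0.836, of lightest fish 2 by 0.935 and of lightest fish 3 by 1.12. The cause of the differences between fish was not tested. A single fish stood apart in 10 members with a gap of at least 2, by construction. The first principal component held 49.7% to 62.7% when 1 fish was left out. The value of 1 fragment in the members is unknown, so the precision that depth gives them cannot be stated.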

Other observations

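There were 66 different orders of the 6 fish among the 100 members, and 49 members shared their order with at least 1 other member, while 51 did not. The other 379 clusters of the class had 217 different orders. The most frequent order ran from heaviest fish 1 over lightest fish 1, lightest fish 3, lightest fish 2 and heaviest fish 2 down to heaviest fish 3, and 6 members had it, ranks 7 to 12. A further 5 members, of ranks 20, 21, 36, 50 and 57, ran from heaviest fish 1 over lightest fish 1, heaviest fish 2, lightest fish 3 and lightest fish 2 down to heaviest fish 3. In both orders the highest and the lowest fish belong to the heaviest group. The second part of the cluster ID had a median of 32117 in the members and 32155 in the rest of the class.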
